A study of Mus musculus with 8 samples.

Results

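The 9 genes described here encode the enzymes of renal glucose production and the first enzyme of fructose use: Pck1, Pck2, Fbp1, Fbp2, G6pc, G6pc3, Slc37a4, Pcx and Khk. They were chosen by symbol, with earlier results of these data known. All 9 were found among the 49315 Ensembl gene IDs of the deposited count table. Messenger RNA was sequenced from mouse kidney in 4 control kidneys and in 4 with Kdm1a conditionally knocked out. Kdm1a encodes the histone demethylase LSD1. The labels name the genotypes only as Control and Conditional Knockout, and the extraction protocol speaks of the controls as wild type. The Cre driver, the floxed exons, the strain, the age and the sex of the animals are not given in the sources used here, so the kidney cells that lost Kdm1a are not known from them. The labels number the kidneys within a genotype and do not say whether they came from separate litters or days. P values below therefore measure the spread between these libraries.

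The kidney is, beside the liver, the organ that makes glucose for the circulation, and it does so in the proximal tubule. Pyruvate carboxylase (Pcx) turns pyruvate into oxaloacetate in the mitochondrion, and phosphoenolpyruvate carboxykinase (cytosolic Pck1, mitochondrial Pck2) turns oxaloacetate into phosphoenolpyruvate. Fructose bisphosphatase (Fbp1, with the muscle-type Fbp2) removes a phosphate further on. The translocase Slc37a4 carries glucose-6-phosphate into the endoplasmic reticulum, where glucose-6-phosphatase (G6pc, with the ubiquitous G6pc3) releases glucose. Ketohexokinase (Khk) phosphorylates fructose, and its product can enter the same route.

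Of these steps, 3 have a pair of genes with the same activity, and their promoters are shown because the pairs are compared within each library below. The sequences come from RefSeq (GRCm38.p6) and run from 250 bases before the start site to the last base outside the gene as the deposited table places it. They are written 5′ to 3′ on the gene's strand. Capitals mark matches, on either strand, to a cyclic AMP response element of the form TTACGTCA, its core TGACG, the letters GTTAAT or a GC box GGGCGG. Those printed are chr2:173152823-173153047 (plus strand) for Pck1, chr14:55540016-55540265 (plus) for Pck2, chr13:62888283-62888532 (minus) for Fbp1, chr13:62858401-62858650 (minus) for Fbp2, chr11:101367466-101367560 (plus) for G6pc and chr11:102189449-102189619 (plus) for G6pc3.
Pck1: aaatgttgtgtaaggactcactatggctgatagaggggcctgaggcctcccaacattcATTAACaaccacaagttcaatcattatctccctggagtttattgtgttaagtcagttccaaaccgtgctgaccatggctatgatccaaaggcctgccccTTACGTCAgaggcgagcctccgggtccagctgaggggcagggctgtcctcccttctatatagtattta
Pck2: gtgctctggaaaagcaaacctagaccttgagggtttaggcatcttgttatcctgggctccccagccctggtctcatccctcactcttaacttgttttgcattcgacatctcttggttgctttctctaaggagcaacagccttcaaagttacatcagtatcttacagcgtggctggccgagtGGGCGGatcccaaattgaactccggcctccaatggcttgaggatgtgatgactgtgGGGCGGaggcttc
Fbp1: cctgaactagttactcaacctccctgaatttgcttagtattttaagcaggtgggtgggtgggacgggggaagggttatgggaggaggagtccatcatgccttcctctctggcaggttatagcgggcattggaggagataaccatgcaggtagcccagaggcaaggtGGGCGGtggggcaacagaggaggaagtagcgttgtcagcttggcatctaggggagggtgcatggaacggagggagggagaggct
Fbp2: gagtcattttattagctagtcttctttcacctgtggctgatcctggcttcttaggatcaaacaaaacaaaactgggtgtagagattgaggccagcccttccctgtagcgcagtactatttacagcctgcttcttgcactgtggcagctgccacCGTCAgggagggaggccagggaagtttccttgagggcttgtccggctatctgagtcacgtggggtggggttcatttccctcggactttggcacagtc
G6pc: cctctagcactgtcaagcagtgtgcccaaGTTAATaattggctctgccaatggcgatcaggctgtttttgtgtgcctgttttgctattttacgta
G6pc3: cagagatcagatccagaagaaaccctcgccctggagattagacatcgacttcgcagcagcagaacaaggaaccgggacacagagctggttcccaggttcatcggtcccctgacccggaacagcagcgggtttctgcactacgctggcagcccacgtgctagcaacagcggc

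The letters TTACGTCA stood at −93 to −86 from the start of Pck1 and in no promoter window of the other 8 genes. Over all 32851 windows of 250 bases in the RefSeq table, 0.447% held them. The core TGACG, which lies within that element, was found in 4 of the 9 genes (Pck1, Khk, Slc37a4 and Fbp2) and in 17.8% of all windows. The letters GTTAAT were found for Pck1, Khk and G6pc, and in 6.43% of all windows. They lay at −221 to −216 from the start of G6pc, at −192 to −187 from that of Pck1 and at −60 to −55 from that of Khk. G6pc also held TATAAA at −29 to −24, as 12.4% of windows did, in the stretch that is not printed. Another window of Slc37a4 held TATAAA too. The GC box was found in 6 genes and in 32.7% of windows, and Fbp2, G6pc and G6pc3 had none. The palindrome TGACGTCA (1.55% of windows), the HNF4-type letters CAAAGTCCA (0.384%), the forkhead letters GTAAACA (3.17%) and the palindromic glucocorticoid response element (0.00913%) matched none of the 9 genes. These matches describe letters within the windows and nothing about binding.

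Libraries held between 19524945 and 28544511 counts. Abundance is given as CPM (a gene's counts scaled to a fixed library total), and the genotypes were tested by quasi-likelihood in edgeR, with Benjamini-Hochberg adjustment over the 18485 genes tested. A gene with an adjusted p under 0.05 is termed called, and adjusted p values come from edgeR where no other tool is given. Over all genes, in either direction, edgeR called 2751 of 18485, DESeq2 4423 of 32438 and limma-voom 8302 of 18485. Here limma-voom always stands for the form with sample weights. Kdm1a itself averaged 113 ± 4.77 CPM in controls against 93.6 ± 1.88 CPM in knockouts (SD, n = 4 each), with all knockouts below all controls (log2 fold change −0.27, SE 0.05, adjusted p 0.0194). It lost this call when control replicate 1 or 3 or knockout replicate 1, 2 or 4 was dropped, with a largest adjusted p of 0.0765. On the first principal component, control replicate 2 (9.56) and knockout replicate 3 (9.71) lay next to each other between the other controls (−78.7 to −52.4) and the other knockouts (48.3 to 68.4). Transcripts of the Y chromosome were nearly absent from control replicate 2 and knockout replicates 1 and 4, with Ddx3y at 1.08 CPM or less there and at 75.5 CPM or more in the other 5 libraries.

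Of the 9 genes, 7 fell in the knockout (Pck1, Fbp1, G6pc, Fbp2, Pcx, Slc37a4 and Khk), 0 rose and 2 (Pck2 and G6pc3) were not called. Over all genes tested, 8.27% were called lower. Since the 9 were chosen with earlier results of these data known, shares of all genes are set beside them as a description. All 9 passed the filter on low counts. In 6 of the 9 every knockout library lay below every control, against 9.58% of all genes tested, and in 0 every knockout lay above, against 9.29%. At an unadjusted p under 0.05, which 35.1% of all genes passed in either direction, 8 of the 9 were lower and 0 higher. DESeq2 and limma-voom also called 0 higher. The median log2 fold change of the 9 genes was −2.04, beside 0.00 for all genes tested. In each of the 7 that fell, control replicate 2 was the lowest control. In whole kidney RNA, fewer proximal tubule cells and less of a transcript in each cell cannot be told apart.

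**Figure D1:**
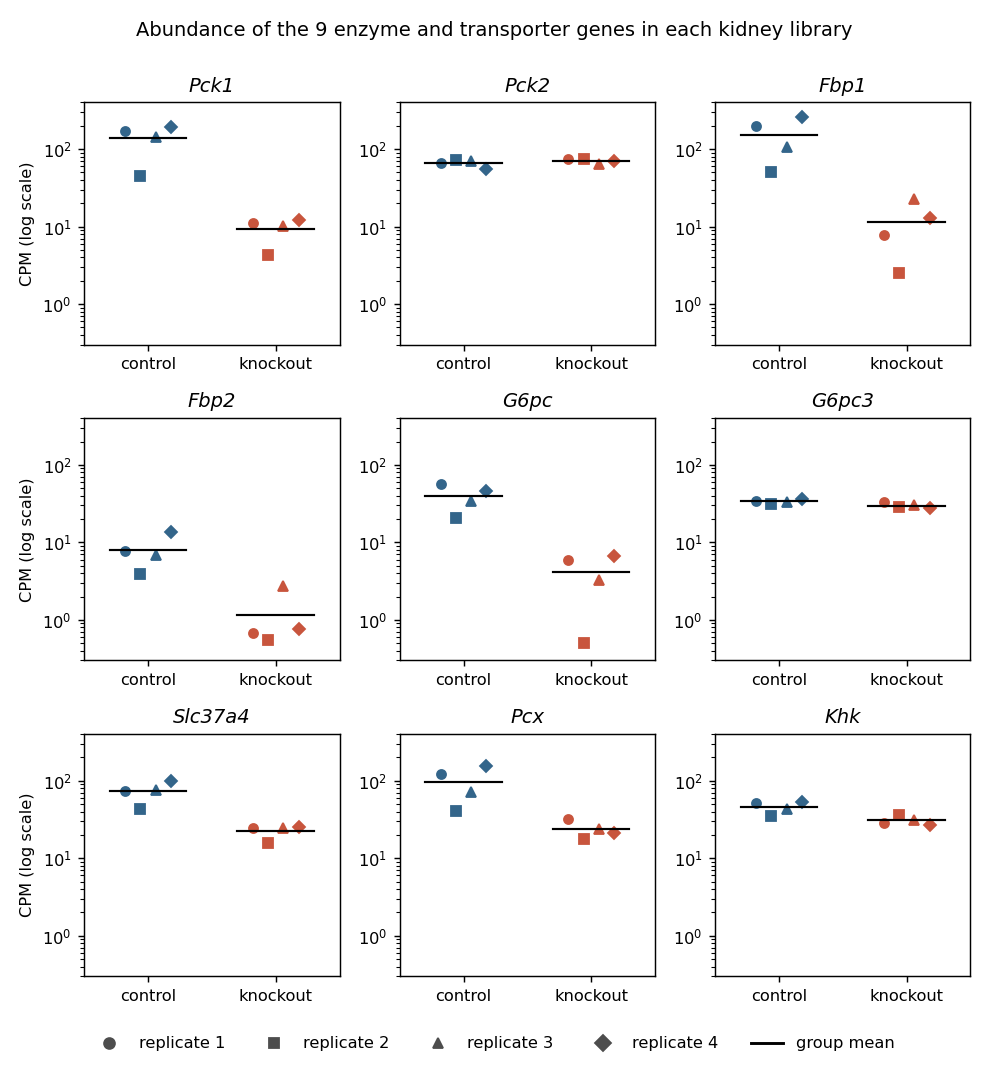
CPM on a log axis in each library for the 9 genes, with controls in blue, knockouts in red, a marker shape for each replicate number and a bar at each group mean. Pck1, Fbp1, G6pc, Fbp2, Slc37a4 and Pcx separate without overlap, while Pck2, G6pc3 and Khk overlap between genotypes.

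Pck1 (ENSMUSG00000027513, chromosome 2, 173153048 to 173159273, plus strand, GRCm38), the cytosolic carboxykinase and the step best known as a control point of glucose production, showed the largest change of the 9. Control replicates 1 to 4 held 171, 44.8, 142 and 191 CPM. Knockout replicates 1 to 4 held 11.1, 4.27, 10.3 and 12.1 CPM. The lowest control was thus well above the highest knockout, and 3 of the 4 knockouts lay close together with replicate 2 below them. The mean went from 137 ± 64.7 to 9.42 ± 3.51 CPM, or 6.88% of the control level. The log2 fold change was −3.85 (SE 0.48, adjusted p 0.00724). Pck1 was called in all 19 alternative fits, with adjusted p values of at most 0.0333.

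Pck2 (ENSMUSG00000040618, chromosome 14, 55540266 to 55550017, plus strand), which encodes the mitochondrial carboxykinase, did not follow. Control replicates 1 to 4 held 65.3, 71.5, 69.5 and 55.4 CPM, and knockout replicates 1 to 4 held 73.7, 75.2, 63.2 and 69.97 CPM. The groups overlapped, and the log2 fold change was 0.11 (SE 0.09, adjusted p 0.433). Pck2 was called in 0 of the 19 alternative fits, where its log2 fold change ran from 0.03 to 0.20 and its adjusted p from 0.112 to 0.840. The predicted gene Gm10876 overlaps Pck2 on the opposite strand, and reads of the 2 genes cannot be told apart, since no strand setting is given.

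Fbp1 (ENSMUSG00000069805, chromosome 13, 62864753 to 62888282, minus strand), the fructose bisphosphatase of liver and kidney, held 198, 50.5, 107 and 255 CPM in control replicates 1 to 4. Knockout replicates 1 to 4 held 7.90, 2.51, 22.4 and 12.9 CPM. Both groups were spread out, by 5.05-fold among controls and 8.92-fold among knockouts, but did not overlap. The mean went from 153 ± 91.6 to 11.4 ± 8.45 CPM, and the log2 fold change was −3.72 (SE 0.68, adjusted p 0.0164). The call was lost without knockout replicate 1 (adjusted p 0.0525) and without knockout replicate 4 (0.0613).

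Fbp2 (ENSMUSG00000021456, chromosome 13, 62836884 to 62858400, minus strand), the muscle-type enzyme, lies 6352 bases from Fbp1 on the same strand. Its control replicates held 7.82, 3.89, 6.78 and 13.5 CPM and its knockout replicates 0.676, 0.552, 2.70 and 0.755 CPM, from 11 to 78 counts in the knockouts. All knockouts lay below the controls, with knockout replicate 3 nearest to them. The log2 fold change was −2.74 (SE 0.56, adjusted p 0.0207). This call was lost when control replicate 1, 3 or 4 or knockout replicate 1, 2 or 4 was dropped (largest adjusted p 0.0742). The handling of reads that match several genes is not stated, and the low counts of Fbp2 are uncertain to the extent that reads of its close paralog Fbp1 match it. Of 8 skeletal muscle markers 5 were tested, and 0 were lower in edgeR, DESeq2 or limma-voom, adjusted or not, while limma-voom called 2 higher. Myh1, Myh2 and Myh4 were under 1 CPM in every library, and the whole list summed to 11.1 to 31.3 CPM in controls and 20.6 to 37.6 CPM in knockouts.

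G6pc (ENSMUSG00000078650, chromosome 11, 101367561 to 101377903, plus strand), the catalytic subunit that releases free glucose in liver and kidney, held 56.5, 20.6, 33.9 and 45.6 CPM in control replicates 1 to 4. Knockout replicates 1 to 4 held 5.91, 0.502, 3.29 and 6.69 CPM, and knockout replicate 2 rested on 10 counts. No knockout reached the lowest control, and the knockouts differed 13.3-fold among themselves. The log2 fold change was −3.24 (SE 0.59, adjusted p 0.0164), with the call lost without control replicate 1 (adjusted p 0.0509) or knockout replicate 4 (0.0530).

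G6pc3 (ENSMUSG00000034793, chromosome 11, 102189620 to 102194081, plus strand), the ubiquitous catalytic subunit, held 34.5, 31.6, 33.1 and 36.3 CPM in the controls and 32.7, 28.3, 30.1 and 27.8 CPM in the knockouts. Only knockout replicate 1 reached into the range of the controls. The log2 fold change was −0.19 (SE 0.08) and was not called (adjusted p 0.124). It was called with limma-voom and sample weights (adjusted p 0.0336) and without control replicate 2 (0.0483). The size of the change stayed between −0.24 and −0.14 in all 19 alternatives.

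Slc37a4 (ENSMUSG00000032114, chromosome 9, 44396852 to 44402968, plus strand), the glucose-6-phosphate translocase that works with both catalytic subunits, held 74.2, 43.6, 76.0 and 98.2 CPM in the controls. Knockout replicates 1 to 4 held 24.3, 15.6, 24.8 and 25.0 CPM, so 3 knockouts were nearly level and replicate 2 was lower. The mean of the knockouts was 30.7% of that of the controls, and the log2 fold change was −1.70 (SE 0.24, adjusted p 0.0102). Like Pck1, it was called in all 19 alternative fits (adjusted p at most 0.0461). The microRNA gene Mir7085 lies within it and had at most 1 count in a library.

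Pcx (ENSMUSG00000024892, chromosome 19, 4510472 to 4621752, plus strand), which supplies the oxaloacetate, held 120, 41.1, 70.5 and 155 CPM in the controls and 31.6, 17.9, 23.6 and 21.2 CPM in the knockouts. The groups did not overlap, and control replicate 2 was nearest to the knockouts. The log2 fold change was −2.04 (SE 0.38, adjusted p 0.0174). The call was lost without control replicate 1 (adjusted p 0.0518), knockout replicate 2 (0.0521) or knockout replicate 4 (0.0656). Lrfn4 overlaps Pcx on the opposite strand, and its own level went from 70.9 ± 4.39 to 56.6 ± 4.73 CPM (n = 4 each).

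Khk (ENSMUSG00000029162, chromosome 5, 30921431 to 30931248, plus strand) changed least among the 7 called genes. Control replicates 1 to 4 held 51.2, 34.7, 43.2 and 52.3 CPM and knockout replicates 1 to 4 held 28.0, 36.5, 31.5 and 27.2 CPM. The groups overlapped, since knockout replicate 2 lay above control replicate 2. The log2 fold change was −0.56 (SE 0.14, adjusted p 0.0353). The call was kept when control replicate 2 was dropped and lost when any other library was (largest adjusted p 0.109, without knockout replicate 4). It was also lost with a covariate for adrenal transcripts (0.0868).

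Between genes, levels can be set side by side only per exon length, as CPM divided by the exon length in kilobases (RPKM). In controls the mean RPKM was highest for Fbp1 (89.8 ± 53.8), followed by Pck1 (40.0 ± 18.9), Slc37a4 (25.6 ± 7.86), Khk (25.2 ± 4.54), Pcx (22.7 ± 11.9), Pck2 (19.2 ± 2.11), G6pc (16.2 ± 6.39), G6pc3 (15.2 ± 0.895) and Fbp2 (6.03 ± 3.02; SD, n = 4 throughout). In this order only Fbp2 stood apart from its neighbour G6pc3, while the ranges of all other neighbours overlapped. Within each control library Fbp1 was nonetheless above Pck1. In knockouts the first was Pck2 (20.7 ± 1.57), followed by Khk (17.1 ± 2.36), G6pc3 (13.4 ± 0.987), Slc37a4 (7.85 ± 1.59), Fbp1 (6.71 ± 4.97), Pcx (5.52 ± 1.37), Pck1 (2.75 ± 1.02), G6pc (1.70 ± 1.16) and Fbp2 (0.883 ± 0.772). Here Khk stood above G6pc3, G6pc3 above Slc37a4, and Pcx above Pck1, without overlap of their ranges. Within each knockout library Pck2 was also above Khk, and Pck1 above G6pc, though their ranges overlapped. The genes that ranked 1 and 2 among the 9 in controls, Fbp1 and Pck1, ranked 5 and 7 in knockouts.

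**Figure D2:**
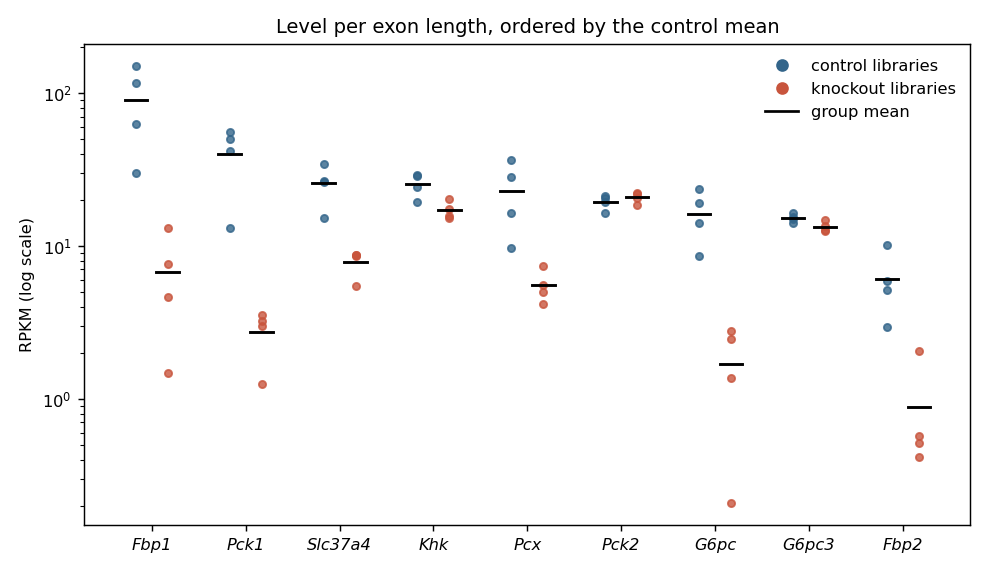
RPKM on a log axis for each library (points) and group mean (bars), with genes ordered by the control mean. Fbp1 and Pck1 lead in controls at 89.8 and 40.0 RPKM, and Pck2 and Khk lead in knockouts at 20.7 and 17.1 RPKM.

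The paired genes of a step were compared within each library, as the difference of their log2 CPM, which library scaling cannot change apart from the prior count of 2. Pck1 stood above Pck2 in control replicates 1, 3 and 4 (by 1.39, 1.03 and 1.78) and below it in control replicate 2 (−0.67). In knockout replicates 1 to 4 it stood below Pck2, at −2.73, −4.11, −2.61 and −2.53. The group means differed by −3.87 (exact two-sided permutation test p = 0.0286, the smallest that 4 against 4 libraries allow; 0.0429 after adjustment over the 3 pairs). In RPKM, Pck1 was 0.621 to 3.41 times Pck2 in controls and 0.0563 to 0.171 times in knockouts.

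G6pc and G6pc3 were near parity in controls, with log2 differences of 0.71, −0.62, 0.03 and 0.33 for replicates 1 to 4. The knockouts lay at −2.45, −5.60, −3.16 and −2.04. The group means differed by −3.43 (exact two-sided permutation p = 0.0286, adjusted 0.0429). For Fbp1 against Fbp2 the values were 4.65, 3.67, 3.96 and 4.24 in controls and 3.40, 2.03, 3.01 and 3.95 in knockouts. These overlapped, since knockout replicate 4 reached above control replicate 2, and the difference of −1.03 did not pass (exact two-sided permutation p = 0.0571, adjusted 0.0571).

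**Figure D3:**
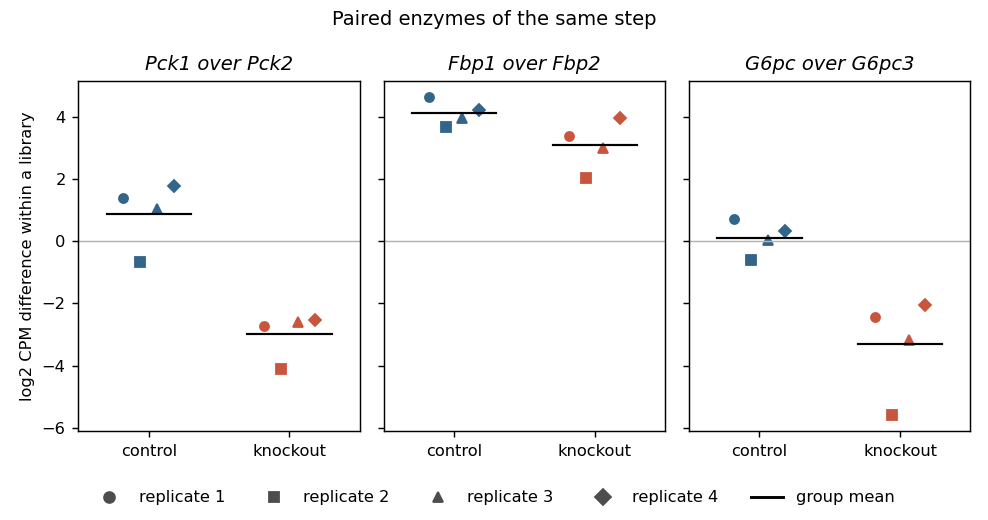
Difference of log2 CPM between the paired genes of a step in each library, with controls in blue, knockouts in red, a marker shape for each replicate and a bar at the group mean. Pck1 over Pck2 and G6pc over G6pc3 shift by −3.87 and −3.43 without overlap, and Fbp1 over Fbp2 overlaps.

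The libraries with and without Y-linked transcripts were also read apart. Among the 5 with them, Pck1 was at 171, 142 and 191 CPM in control replicates 1, 3 and 4 and at 4.27 and 10.3 CPM in knockout replicates 2 and 3. Among the 3 without them, it was at 44.8 CPM in control replicate 2 and at 11.1 and 12.1 CPM in knockout replicates 1 and 4. In the fit of the 5 libraries with Y-linked transcripts, 7 of the 9 genes were called lower, and 7 were when the level of Y-linked transcripts entered the model. The 3 libraries without them hold a single control, so no test was made there. With control replicate 2 and knockout replicate 3 both left out, 7 were called lower as well. Over all genes, in either direction, 3163 of 18944 were called in the fit of the 5 libraries. With the Y-linked level in the model 2079 of 18485 were, and without control replicate 2 and knockout replicate 3 7903 of 18513 were. The number of the 9 called lower depended on single libraries in the full comparison: it was 2 without knockout replicate 4, 3 without control replicate 1, 4 without knockout replicate 1 and 4 without knockout replicate 2, and 5 to 8 in the other 4 such fits. Calls over all genes were 153, 536, 567 and 596 in the same order, and 374 to 7084 in the other 4.

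Proximal tubule markers moved with these genes. Of 12 markers, 11 were called lower, and Dpep1 was not (adjusted p 0.310). Their summed level was 429 to 1701 CPM in controls and 87.1 to 350 CPM in knockouts, and their mean log2 CPM went from 5.25 ± 0.86 to 2.44 ± 1.03 (SD, n = 4 each). Set against this mean within each library, Pck1 stood 1.40 to 2.01 log2 units above it in controls and between −0.28 and 1.14 in knockouts. Fbp1 stood 1.58 to 1.95 above it in controls and 0.23 to 1.08 in knockouts. In both genes the groups did not overlap, and the group means differed by −0.96 and −1.06. The log2 fold changes of single markers ran from −4.51 (Slc22a6) to −0.39 (Dpep1). Those of Pck1 (−3.85) and Fbp1 (−3.72) lay within that range. Fbp2 stood at −2.37 ± 0.27 in controls and −2.40 ± 0.50 in knockouts (SD, n = 4 each), and G6pc overlapped between groups with knockout replicates 2 and 3 low, at −1.92 and −1.90. Pcx and Slc37a4 fell less than the marker mean on average, with overlap between groups. Khk, G6pc3 and Pck2 stood higher against it in knockouts, by 2.26, 2.62 and 2.92, without overlap. The marker mean itself changed by −2.81, so a gene that did not change stands that much higher against it in knockouts. These distances are descriptions with no test.

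**Figure D4:**
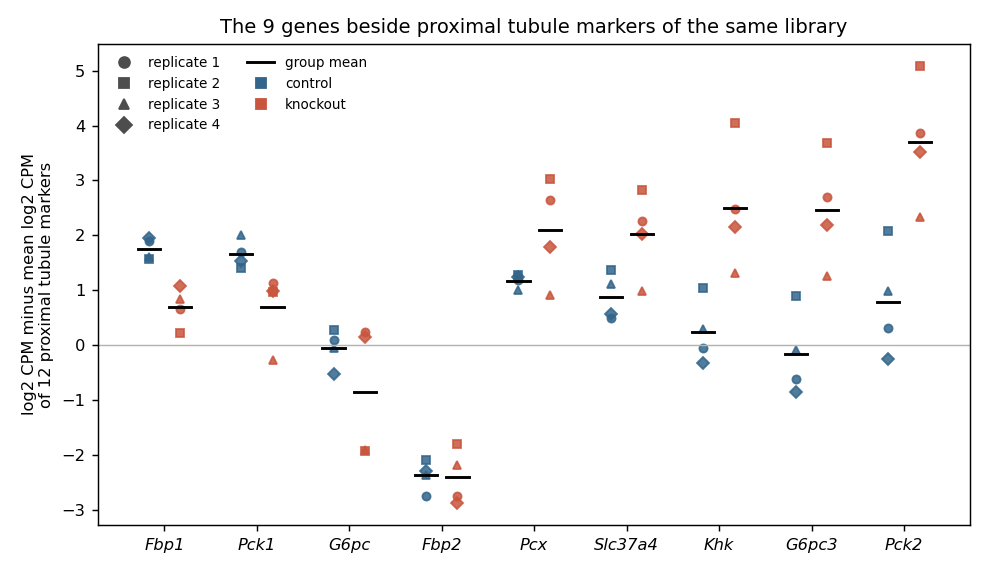
Log2 CPM of each gene minus the mean log2 CPM of 12 proximal tubule markers of the same library, with controls in blue, knockouts in red and bars at group means. Fbp1 and Pck1 lie lower in knockouts, Fbp2 is level, and Khk, G6pc3 and Pck2 lie higher. The marker mean itself changed by −2.81.

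Markers of other tissues were read because liver and fat express several of these enzymes strongly. Of 8 hepatocyte markers 1 was called, Ttr, which was lower, and 4 were higher at an unadjusted p under 0.05. Of all genes, 35.1% passed that unadjusted threshold in either direction. After adjustment DESeq2 called 3 higher and limma-voom 1. The summed level of the list was 23.3 to 106 CPM in controls and 190, 5.77, 13.9 and 161 CPM in knockout replicates 1 to 4. Ttr alone held 59.5, 10.2, 36.4 and 81.4 CPM of it in control replicates 1 to 4, and 0.602 to 4.84 CPM in knockouts. Alb was at 89.3 and 82.4 CPM in knockout replicates 1 and 4 and at 7.09 CPM or less elsewhere. Among the 9 genes, only Pck1 and G6pc were higher in both of these knockouts than in either of the other 2. Adrenal markers were high in the same libraries, at a summed 2241 and 282 CPM against 14.6 and 15.8 CPM in knockout replicates 2 and 3 and 17.3 to 120 CPM in controls. Of 10 adrenal markers 8 were tested and 0 called in edgeR or limma-voom, while 5 were higher at an unadjusted p under 0.05 in edgeR and DESeq2 called 4 higher. Among 7 adipocyte markers 2 were tested and 0 called by edgeR (1 lower and 1 higher at an unadjusted p under 0.05). DESeq2 called 1 higher and limma-voom 1 lower. Adipoq was at 1.15 CPM or less, and the sum of 144 to 276 CPM was mostly Fabp4. Of 8 leukocyte markers, 5 were tested and Ptprc was called higher (log2 fold change 0.93, adjusted p 0.0146). Their sum was 57.8 to 72.5 CPM in controls and 78.2 to 81.9 CPM in knockouts. All 6 markers of other nephron segments had a lower estimate in knockouts, and Umod, Slc12a3 and Nphs1 were called. Their sum was 441 to 1704 CPM in controls and 82.7, 30.3, 791 and 118 CPM in knockout replicates 1 to 4. The part of these other tissues in the results was not tested.

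The wider pathway was read from 7 lists, also chosen with earlier results of these data known, with 77 genes, all tested. Of these, 33 were called lower and 4 higher, where 8.27% and 6.61% of all genes were, and the median log2 fold change was −0.48. These counts also depended on single libraries. Calls downward were 0 to 6 in each fit without control replicate 1, 3 or 4 or knockout replicate 1, 2 or 4, and calls upward were 0 in each of these. DESeq2 called 4423 of 32438 genes and limma-voom 8302 of 18485 in either direction, and their list counts below stand beside these totals.

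Fructose and polyol handling had 6 of 7 genes called lower and 0 higher (median −1.18), with Slc2a5, a fructose transporter of the luminal membrane, not called (−0.48, adjusted p 0.328). Slc2a2, the transporter through which glucose and fructose cross the basolateral membrane, changed by −2.35 (SE 0.56, adjusted p 0.0286), and the glycerate kinase Glyctk by −1.26 (SE 0.28, adjusted p 0.0238). Both lost their calls when control replicate 1 or 3 or knockout replicate 1 or 4 was dropped, with largest adjusted p values of 0.0820 and 0.0748. Slc2a2 lost it without control replicate 4 too, and Glyctk without knockout replicate 2. Slc2a2 was also not called with the adrenal covariate or among the libraries with Y-linked transcripts. In each of these fits 3 of the 7 genes were called lower.

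Among relatives of the glucose-6-phosphate system, edgeR called 0 of 8 genes in either direction (median −0.14). At an unadjusted p under 0.05, which 35.1% of all genes passed in either direction, there were 2, H6pd and Pgm2, both lower. DESeq2 called 1 lower and limma-voom 4 lower and 1 higher. H6pd is named after its value was seen. The smallest adjusted p was that of Pgm2, a phosphoglucomutase (−0.27, SE 0.09, adjusted p 0.0614). It was called with DESeq2 and limma-voom and in 3 other alternatives of 19.

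The reversible enzymes that glucose production shares with glycolysis fell in 6 of 7 genes with 0 higher (median −0.64), and Gpi1 was not called (−0.39, adjusted p 0.0593). Their estimated changes were smaller than those of Pck1, Fbp1 and G6pc. Gapdh went by −0.59 (SE 0.14, adjusted p 0.0264), Pgk1 by −0.58 (SE 0.14, adjusted p 0.0300) and Pgam1 by −0.85 (SE 0.21, adjusted p 0.0302). Each kept its call when control replicate 2 or knockout replicate 3 was dropped and lost it when any of the other 6 libraries was. All 3 also lost it with the adrenal covariate, where 0 of the 7 genes were called, and 3 of the 7 were called with the Y-linked covariate. DESeq2 and limma-voom called all 7 lower, as did the fit of the libraries with Y-linked transcripts.

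Among genes of the opposing, glycolytic steps, 1 of 13 fell and 2 rose, beside 8.27% and 6.61% of all genes, with a median of −0.35. The 1 of 13 that fell is near the share of all genes. DESeq2 called 4 lower and limma-voom 7 lower, as did the fit without both control replicate 2 and knockout replicate 3, and with no filter 0 were called higher. The gene that fell was Pklr, the pyruvate kinase of liver, kidney and red cells (−2.56, SE 0.56, adjusted p 0.0240), which held 2.92 to 10.6 CPM in controls and 0.301 to 2.15 CPM in knockouts. Pfkfb1 rose by 0.60 (SE 0.13, adjusted p 0.0225) and Pfkfb2 by 0.36 (SE 0.10, adjusted p 0.0381). Both encode enzymes that make and break down the regulator fructose 2,6-bisphosphate, which inhibits Fbp1. These 3 calls were lost when any of the 6 libraries named for Gapdh was dropped, with the adrenal covariate and among the libraries with Y-linked transcripts. Pfkfb1 and Pfkfb2 also lost theirs with no filter, and Pfkfb2 with the Y-linked covariate (adjusted p 0.0618).

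For the entry of substrates, 9 of 15 genes fell and 1 rose, beside 8.27% and 6.61% of all genes (median −0.75). The 1 of 15 that rose is near the share of all genes. Glycerol enters through Gk and Gpd1, which changed by −1.59 (SE 0.27, adjusted p 0.0143) and −1.97 (SE 0.39, adjusted p 0.0195). Mdh1, the cytosolic malate dehydrogenase that restores oxaloacetate for Pck1, changed by −1.12 (SE 0.23, adjusted p 0.0198). Gk lost its call only without knockout replicate 4 (adjusted p 0.0566), and Gpd1 and Mdh1 without control replicate 1 or 3 or knockout replicate 1, 2 or 4. The gene that rose was Gpt2, an alanine aminotransferase, by 0.44 (adjusted p 0.0226), named after its value was seen. With the adrenal covariate 5 of the 15 were called lower and 0 higher, while DESeq2 and limma-voom each called 11 lower and 2 higher.

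Of 8 mitochondrial carriers, 6 fell, 0 rose and Slc25a12 and Slc25a22 were not called (median −0.58). DESeq2 called 6 lower and 0 higher, and limma-voom 7 lower and 1 higher. Slc25a13, an aspartate and glutamate carrier, changed by −0.99 (SE 0.21, adjusted p 0.0225), the dicarboxylate carrier Slc25a10 by −1.22 (SE 0.29, adjusted p 0.0281) and the pyruvate carrier subunit Mpc1 by −0.59 (SE 0.14, adjusted p 0.0319). These 3 calls were also lost when any of the 6 libraries named for Gapdh was dropped. With the adrenal covariate 1 of the 8 carriers was called lower, with the calls of Slc25a10 and Mpc1 lost, and with the Y-linked covariate 3 were, with that of Mpc1 lost.

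Among 19 regulators, 5 fell and 1 rose, beside 8.27% and 6.61% of all genes, and the median was 0.04. The 1 of 19 that rose is near the share of all genes. DESeq2 called 7 lower and 2 higher, and limma-voom 6 lower and 3 higher. Hnf4a, a transcription factor of liver and proximal tubule, changed by −2.26 (SE 0.57, adjusted p 0.0336). Hnf4a held 110, 63.6, 122 and 163 CPM in control replicates 1 to 4 and 29.6, 3.31, 35.2 and 27.4 CPM in the knockouts, so that knockout replicate 2, lowest for Pck1, Fbp1 and G6pc, was also lowest here. The nuclear receptor gene Esrra changed by −1.07 (SE 0.29, adjusted p 0.0382). Hnf4a lost its call without control replicate 1, 3 or 4 or knockout replicate 1 or 4, and Esrra lost it without any of the 6 libraries named for Gapdh. Both also lost it with the Y-linked and with the adrenal covariate, under each of which 1 of the 19 regulators was called lower, and Hnf4a among the libraries with Y-linked transcripts, where 2 were. Ppargc1a (−0.81, adjusted p 0.0394), the coactivator known for inducing Pck1 and G6pc, and Ppara (−1.49, adjusted p 0.0473) were also called lower, and the insulin receptor gene Insr was called higher (0.49, adjusted p 0.0477). These last 3 are named after their values were seen. Without control replicate 1 or 3, 0 of the 19 regulators were called lower, so Ppargc1a and Ppara lost their calls there. Insr overlapped between groups. It lost its call with the adrenal covariate and without any of the 6 libraries named for Gapdh. Foxo1 (0.40), Creb1 (0.28), Crtc2 (0.19) and Nr3c1 (0.04), which carry the signals of insulin, cyclic AMP and glucocorticoids to these promoters, were not called (adjusted p 0.149, 0.0607, 0.109 and 0.748).

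**Figure D5:**
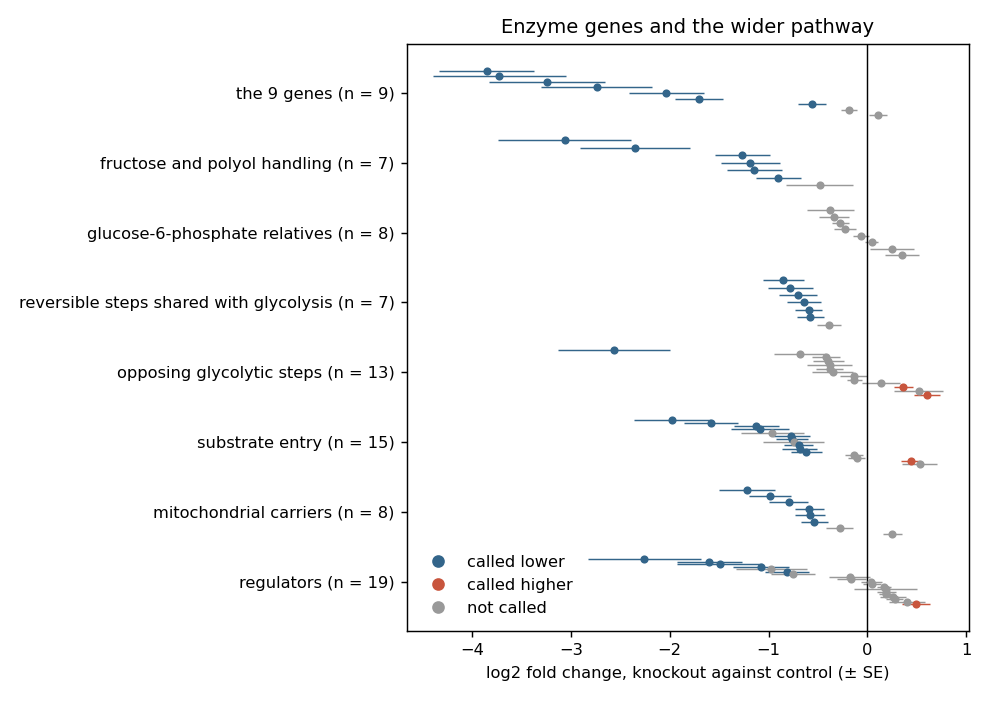
Log2 fold change (knockout against control) with its standard error for the 9 genes and the 77 genes of 7 pathway lists, with blue for called lower, red for called higher and grey for not called. Pck1, Fbp1 and G6pc lie furthest to the left, at −3.85, −3.72 and −3.24.

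Patterns over the 8 libraries were compared by Pearson's r of log2 CPM over 10871 genes averaging 10 CPM or more, as a description that includes the difference between genotypes. The gene most like Pck1 was Slc37a4 (r = 0.995), followed by Pla2g12a (0.989) and Gpx3 (0.986). Those most like Fbp1 were Acsm1, Slc47a1 and Spp2 (0.996 each). G6pc was most like Rbx1 (0.979), Pfdn2 (0.977) and Keg1 (0.975), and Khk most like Ssna1 (0.993), Emc8 (0.988) and Tmem208 (0.985). Such values were common: 262 genes had an r over 0.95 with Pck1, 253 with Fbp1, 93 with Khk and 28 with G6pc. Rbx1, Pfdn2, Ssna1, Emc8 and Tmem208 changed little in size, with log2 fold changes from −0.25 to −0.09 and no call. Among the 9 genes, r was 0.969 between Pck1 and Fbp1, 0.951 between Pck1 and G6pc and −0.591 between Pck1 and Pck2.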

How the data were processed

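Messenger RNA of 8 kidneys was captured with oligo-dT beads and made into NEBNext Ultra libraries, per the labels' protocols. The submitters' processing notes name Trimmomatic 0.36, STAR 2.5.2b, featureCounts of Subread 1.5.2 and GRCm38. Strand setting and treatment of reads that match several genes are not given in the sources used here. The authors deposited raw counts per gene without normalization, in a table of the whole series and, per the file headers, with exon coordinates and length in a table for each library. The 2 kinds of table differed in 0 values. Symbols came from GENCODE M21 for 48970 IDs, and 345 had none.

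Libraries were scaled by the TMM method, filtered with filterByExpr and compared with edgeR 4.0.16 (R 4.3.3) by quasi-likelihood, genotype only. The test was checked on simulated counts with a single dispersion for all genes, and that check does not cover the spread between these libraries. Standard errors come from the F statistic. RPKM use the deposited exon lengths. Members and lists were chosen with earlier results of these data known. Named genes are Kdm1a, the 9 genes, up to 3 called genes with the smallest adjusted p in each pathway list (or the first gene where none was called) and the 3 genes most like Pck1, Fbp1, G6pc and Khk, passing over predicted genes, Rik clones, Xist and Y-linked genes. Of the pathway genes this rule names, 2 are not reported here by name and stay in the counts. Alternatives were DESeq2 1.42.0 and its size factors, limma-voom 3.58.1 with sample weights, other filters, a replicate block, covariates, the tables per library and libraries left out. The fit of libraries with Y-linked transcripts was added after seeing the data. One count stood for 0.0350 to 0.0512 CPM before scaling, so values of a few CPM carry visible counting error.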

Additional observations from a re-analysis of the deposited data

Results flagged for a closer look

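In 4 of the 64 groups of 4 libraries examined, a single library stood apart, meaning that its gap to the nearest other, as a share of the whole range, exceeded the critical value of Dixon's test. Chance does this in about 1 in 20 groups. Fbp2 was at 2.70 CPM in knockout replicate 3, against 0.552 to 0.755 CPM in the other knockouts. Slc37a4 was at 15.6 CPM in knockout replicate 2, against 24.3 to 25.0 CPM in the others. Gapdh was at 1191 CPM in knockout replicate 3, against 993 to 1005 CPM. The log2 difference of Pck1 and Pck2 was −4.11 in knockout replicate 2, against −2.73 to −2.53 in the other knockouts.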

How the results depend on the processing

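All 9 genes kept the sign of their change in the 19 alternative fits. The number called lower ran from 2 to 8 when 1 library was dropped and from 6 to 8 in the other 11, and the number called higher was 0 in every one. Over all genes, 2751 calls became 4423 with DESeq2, 8302 with limma-voom and sample weights and 1210 with the adrenal covariate. They became 7903 without both control replicate 2 and knockout replicate 3, and 153 to 7084 with a library left out. Pathway genes called lower (33) became 20 with the Y-linked covariate, 10 with the adrenal covariate and 0 to 47 with a library left out. Those called higher (4) became 9 with limma-voom, 2 without a filter, 0 with the adrenal covariate, 7 without those 2 libraries and 0 to 6 with a library left out. Kdm1a, at −0.27, ran from −0.29 to −0.24 with a library left out, and was −0.28 with an adjusted p of 0.0562 among libraries with Y-linked transcripts. The difference in the pair Pck1 and Pck2 ran from −4.39 to −3.50 and that in G6pc and G6pc3 from −3.85 to −2.67 with a library left out, where the exact permutation test of 3 against 4 libraries cannot go below p = 0.0571. With the replicate number as a block, 3229 genes were called, 6 of the 9 were lower and Khk was not called (adjusted p 0.0619). Deviations of same-numbered libraries correlated at −0.11, 0.33, 0.23 and −0.06, and not every library correlated best with its own number, so the numbers are not taken to pair the animals. The cause of these shifts was not tested.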
